A study of Mus musculus with 24 samples.

Results

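The 47 genes described here encode the glutamate receptors of mouse nucleus accumbens, the auxiliary subunits that accompany them, and scaffold, kinase and adhesion proteins of the postsynaptic density. They were taken by symbol from a list, and all 47 were found among the 37991 genes of the count table. By role they are 4 AMPA, 7 NMDA and 5 kainate receptor subunits, 1 delta receptor, 6 metabotropic receptors, 7 auxiliary subunits, 13 scaffolds, 2 kinase subunits and 2 adhesion molecules.

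Tissue was punched from the nucleus accumbens, in the ventral striatum, although the protocol text also names dorsal striatum. There were 24 libraries in 8 groups of 3, and every library pooled the mRNA of 4 mice, so n counts pools and not animals. In the floxed experiment all mice were C57BL/6J, carried the genotype Dnmt3a2lox/2lox and were stressed. Its groups were Cre females and Cre males, which received AAV-CRE, and GFP females and GFP males, which received AAV-GFP; AAV is an adeno-associated virus, and Cre recombinase cuts out the part of Dnmt3a between the lox sites. In the wild-type experiment C57BL/6J mice without virus formed stressed females, control females, stressed males and control males. The sources used here do not give the promoter of the virus, the cell types it entered, the ages, the length of the stress or the time of collection. No floxed mouse was unstressed and no wild-type mouse had virus, so each experiment was fitted alone and no test was made between them.

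Glutamate released by a presynaptic terminal opens AMPA, NMDA and kainate receptors, which are ion channels built from 4 subunits, and activates metabotropic receptors, which signal through G proteins. Auxiliary subunits change the gating and trafficking of the channels, and scaffolds of the PSD-95, SAPAP, Shank and Homer families hold receptors and kinases in the postsynaptic density. In the nucleus accumbens the main cell is the medium spiny neuron, a GABAergic cell that receives glutamate from cortex, hippocampus, amygdala and thalamus. NMDA receptors require the GluN1 subunit, encoded by Grin1, and differ in their other subunits. Dnmt3a, the floxed gene, encodes an enzyme that adds methyl groups to DNA.

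Floxed libraries held 28132563 to 59829070 counts each, wild-type libraries 7116123 to 12145551. The share of all counts that fell on the members was 1.00% to 1.17% in floxed libraries, against 1.10% to 1.36% in wild-type libraries. The medium spiny neuron markers Drd1, Drd2 and Ppp1r1b were present in all 24 libraries. The 3 Cre male libraries stood apart by markers of cortical excitatory neurons, whose 12 genes summed to 268 to 619 CPM there, against 47.3 to 60.9 CPM in GFP males. This list, called cortical markers below, also holds Slc17a6, which is typical of thalamic and other subcortical neurons. CPM are counts scaled to the library size with TMM factors. Ttr, the defining marker of choroid plexus, stood at 125, 1847 and 23.8 CPM in Cre males and at 0.952 to 15.3 CPM in the other 9 floxed libraries. In the wild-type libraries it stood at 11.9, 396 and 372 CPM in stressed females, 13.3, 494 and 2.54 CPM in control females, 115, 34.2 and 140.4 CPM in stressed males and 8.35, 958 and 2285 CPM in control males. These are tissue punches, so fewer cells of a type and less RNA per cell cannot be told apart.

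Levels were compared between genes as CPM per kb of merged exons, as mean ± SD over the 6 wild-type control libraries. Camk2a, the alpha subunit of the calcium and calmodulin dependent kinase of the postsynaptic density, was highest at 320.0 ± 44 CPM per kb. Camk2b, its beta subunit, followed at 144 ± 16.9 CPM per kb. Among AMPA subunits Gria1, which encodes GluA1, was highest at 126 ± 4.42 CPM per kb and Gria4 lowest at 12.3 ± 1.6 CPM per kb. Gria2, whose edited subunit keeps AMPA channels closed to calcium, lay between them at 50.2 ± 11 CPM per kb. The 6 control libraries of Gria1 did not overlap with those of the other 3 AMPA genes.

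Among NMDA subunits the obligate Grin1 stood at 36.1 ± 12.7 CPM per kb. Exons of Grin1 share 1307 bases with Grin1os on the opposite strand. The glutamate-binding subunits Grin2b and Grin2a stood at 8.59 ± 0.977 and 3.99 ± 0.167 CPM per kb. Grin2c, at 9.38 ± 1.75 CPM per kb, overlapped with Grin2b in the range of its libraries. Grin3b was the lowest of all 47 at 0.16 ± 0.0704 CPM per kb, and it was the 1 member that the filter on low counts removed from the wild-type tests. Its exons share 1059 bases with the opposite strand gene Tmem259, so even this level may hold reads of another gene.

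Kainate receptors were led by Grik5, at 51.1 ± 10.6 CPM per kb, which encodes a subunit that needs a partner to form a channel. Grik1 was lowest of them at 1.03 ± 0.235 CPM per kb. Grid1, the delta receptor gene of the list, stood at 21.2 ± 1.64 CPM per kb. Of the metabotropic receptors, Grm3 stood at 54.5 ± 4.58 CPM per kb and Grm8 at 0.539 ± 0.122 CPM per kb. The group I receptor Grm5, coupled to phospholipase C, stood at 44.8 ± 6.92 CPM per kb, and its library range overlapped with that of Grm3. Grm2, the close relative of Grm3, was next to Grm8 at 1.06 ± 0.234 CPM per kb.

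Among the auxiliary subunits Cnih2, a cornichon protein that slows AMPA channel closing, was highest at 109 ± 33.8 CPM per kb and Cnih3 lowest at 6.97 ± 1.59 CPM per kb. Scaffolds ran from Dlgap3, a SAPAP protein, at 78.7 ± 14.6 CPM per kb, to Homer3, at 1.42 ± 0.219 CPM per kb. Dlg4, which encodes PSD-95, stood beside Dlgap3 at 78.3 ± 14.5 CPM per kb. Of the neuroligins, postsynaptic partners of neurexins, Nlgn3 stood at 24.7 ± 2.01 CPM per kb and Nlgn1 at 5.42 ± 0.369 CPM per kb. The exons of Nlgn3 share 3823 bases with Gm21986 on the same strand. On the opposite strand, those of Nlgn1 share 1229 bases with A830092H15Rik and those of Homer3 share 874 bases with Ddx49. Dividing by the longest transcript in place of the merged exons brought Dlgap1 from rank 33 to rank 21 and Grin1 from rank 15 to rank 7, and the first and second ranks stayed with Camk2a and Camk2b. It also changed which scaffold led, with 164 CPM per kb of Dlg4 and 84.6 of Dlgap3. Among metabotropic receptors it put Grm5, at 57.1, above Grm3, at 54.5, and Grm2, at 1.10, just below Grm8, at 1.11 CPM per kb, so neither end of that group has a fixed order.

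**Figure D1:**
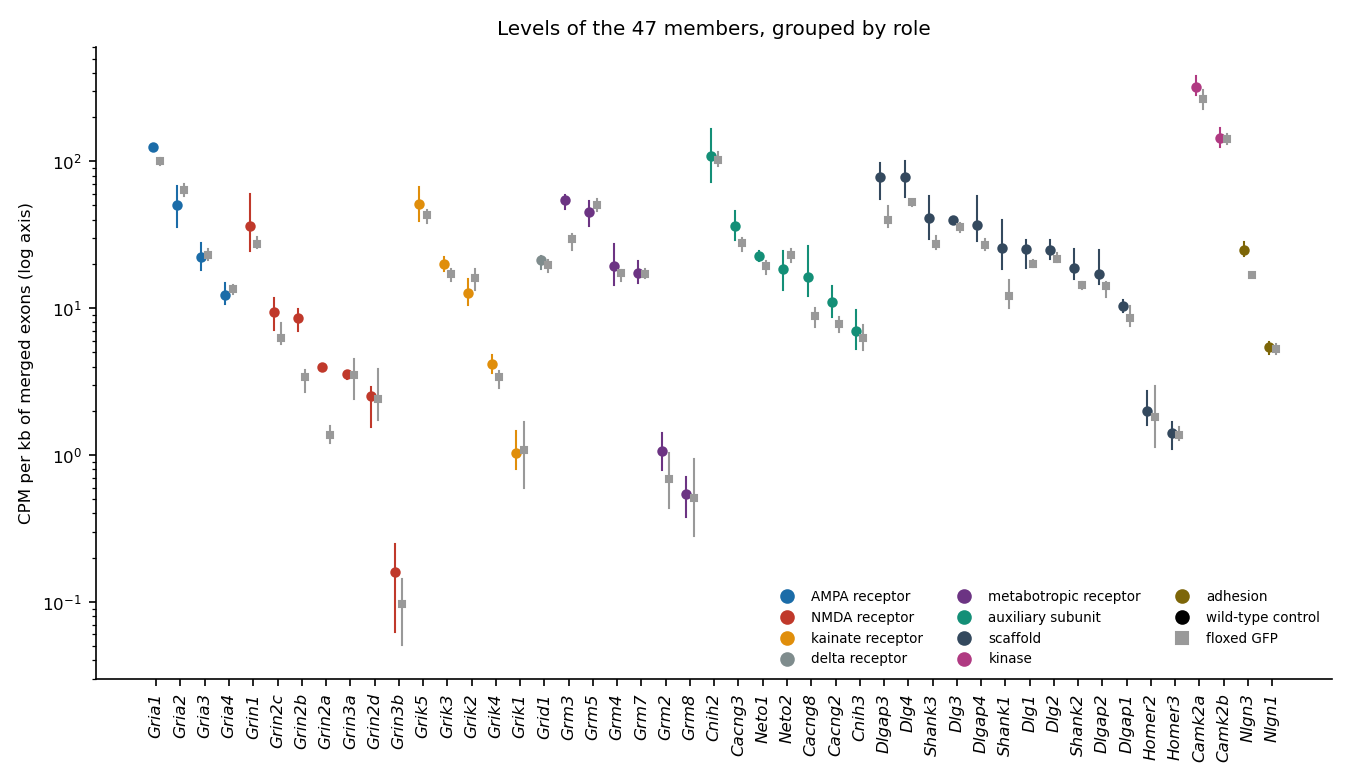
Level of each of the 47 members, in CPM per kb of merged exons on a log axis, ordered by role and by level. Coloured circles are means of the 6 wild-type control libraries, grey squares means of the 6 floxed GFP libraries, and vertical lines run from the lowest to the highest library. Camk2a is highest and Grin3b lowest in both experiments, and Grin2a and Grin2b sit lower in the floxed GFP libraries.

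In the 6 floxed GFP libraries Camk2a was again first at 265 ± 29.7 and Grin3b again last at 0.0968 ± 0.0394 CPM per kb. The widest gaps relative to the level were at Grin2a, with 1.37 ± 0.122 CPM per kb in GFP libraries against 3.99 ± 0.167 CPM per kb in wild-type controls, and at Grin2b, with 3.42 ± 0.396 against 8.59 ± 0.977 CPM per kb. Stress, genotype, virus, depth and any sequencing batch differ together between these libraries and cannot be told apart, and no test was made.

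The floxed gene itself was measured first. Dnmt3a had 143, 137 and 138 CPM in Cre males, against 182, 164 and 171 CPM in GFP males. The groups did not overlap, and the log2 difference was -0.30 ± 0.056 (SE, edgeR quasi-likelihood test, adjusted p = 0.0149). In females Dnmt3a had 155, 150.4 and 139.8 CPM with Cre, against 162, 169 and 155 CPM with GFP, a log2 difference of -0.12 ± 0.056 that did not pass (edgeR, adjusted p = 0.829). The exons between the lox sites are not named in the labels, and counts over the whole gene can include exons outside them, so they do not measure how much was deleted.

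In males, 7 of the 47 members differed between Cre and GFP. Grm2, Cnih3, Dlgap1 and Grik3 were higher with Cre, and Grid1, Grm7 and Grik2 were lower. The 7 are 14.9% of the members, set against 4.96% of all 17597 genes tested. Over all genes 3.68% were called higher and 1.28% lower. A gene is called at an adjusted p below 0.05 in edgeR's quasi-likelihood test with Benjamini-Hochberg adjustment over all genes, and this rule holds for every comparison below. DESeq2 called 12 members, among them all 7, against 10.3% of all genes. At an unadjusted p below 0.05 stood 20 members, 10 higher and 10 lower, or 42.6% against 24.8% of all genes. The median log2 difference of the members was 0.016, beside 0.0046 over all genes.

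Among metabotropic receptors, Grm2 encodes mGlu2, a receptor known for damping glutamate release from cortical and thalamic terminals. It had 8.72, 9.49 and 5.77 CPM in Cre males, against 2.96, 3.13 and 2.12 CPM in GFP males. All 3 Cre male libraries were above all 3 GFP male libraries, with library 3 the lowest of the Cre males. The means were 7.99 ± 1.96 and 2.73 ± 0.543 CPM (SD, n = 3 each), and the log2 difference was 1.56 ± 0.25 (SE, edgeR, adjusted p = 0.00983), or 2.94-fold. The exons of Grm2 share 470 bases with Gm28111 on the opposite strand. Grm7 encodes mGlu7, a presynaptic receptor of low glutamate affinity. It had 84.1, 78.7 and 85 CPM in Cre males, against 94.9, 107 and 102 CPM in GFP males, without overlap. Its log2 difference was -0.29 ± 0.065 (SE, edgeR, adjusted p = 0.0278).

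The other metabotropic receptors did not pass. Grm5 had 465, 376 and 453 CPM in Cre males and 509, 569 and 514 CPM in GFP males, a log2 difference of -0.30 ± 0.084 (SE, edgeR, adjusted p = 0.0615). The groups did not overlap, and Cre male library 2 was the lowest. Grm3, a receptor of neurons and astrocytes, had 82.6, 61.3 and 83.6 CPM in Cre males and 90.8, 97.8 and 92.1 CPM in GFP males (edgeR, adjusted p = 0.131). Grm4 stood at 104, 56.6 and 104 CPM in Cre males and 109, 103 and 99 CPM in GFP males (edgeR, adjusted p = 0.478), so that library 2 alone was low. Grm8 stood at 6.72, 11.8 and 4.48 CPM in Cre males and 3.53, 3.7 and 3.64 CPM in GFP males (edgeR, adjusted p = 0.281).

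Among kainate receptors, called members lay on both sides. Grik3 encodes GluK3, a subunit of low glutamate affinity. It had 203, 195 and 173 CPM in Cre males, against 153, 143 and 161 CPM in GFP males, with every Cre male library higher. Its log2 difference was 0.32 ± 0.083 (SE, edgeR, adjusted p = 0.0494), just inside the threshold. Grik2 encodes GluK2, a subunit that forms channels on its own. It had 169, 143 and 185 CPM in Cre males, against 225, 244 and 215 CPM in GFP males, with every Cre male library lower. Its log2 difference was -0.46 ± 0.10 (SE, edgeR, adjusted p = 0.0278). Grik1 had 8.2, 13.9 and 6.15 CPM in Cre males and 6.29, 5.89 and 3.98 CPM in GFP males and did not pass (edgeR, adjusted p = 0.167). Grik4 and Grik5, which encode subunits of high glutamate affinity, had log2 differences of 0.069 and 0.016 (edgeR, adjusted p = 0.8 and 0.932).

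Grid1 encodes GluD1, a delta receptor that binds cerebellins and neurexins across the synapse. It had 108, 95.3 and 103 CPM in Cre males, against 127, 121 and 124 CPM in GFP males, without overlap. Its log2 difference was -0.28 ± 0.061 (SE, edgeR, adjusted p = 0.0271).

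Of the auxiliary subunits, 1 of 7 was called. Cnih3, the cornichon related to Cnih2, had 42.5, 44.4 and 24.9 CPM in Cre males, against 15.4, 18.7 and 15.3 CPM in GFP males. Libraries 1 and 2 of the Cre males were the highest, and library 3 was still above every GFP male library. The log2 difference was 1.18 ± 0.26 (SE, edgeR, adjusted p = 0.0337), or 2.27-fold. Cacng3, which encodes the AMPA receptor regulator gamma-3, had 70.4, 63.8 and 68.7 CPM in Cre males and 77.5, 81.4 and 83.3 CPM in GFP males and did not pass (edgeR, adjusted p = 0.0828). The other auxiliary subunits had log2 differences of 0.17 for Cacng2, 0.04 for Cacng8, 0.18 for Cnih2, -0.21 for Neto1 and -0.10 for Neto2.

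Of the scaffolds, 1 of 13 was called. Dlgap1 encodes SAPAP1, which links PSD-95 to Shank proteins. It had 259, 273 and 184 CPM in Cre males, against 135, 157 and 134 CPM in GFP males. All Cre male libraries were higher, and library 3 was again nearest to the GFP males. The log2 difference was 0.75 ± 0.17 (SE, edgeR, adjusted p = 0.0325), or 1.68-fold. Dlg2, which encodes PSD-93, had 322, 287 and 317 CPM in Cre males and 345, 387 and 347 CPM in GFP males without overlap, and did not pass (edgeR, adjusted p = 0.0685). Homer2, which ties group I metabotropic receptors to the scaffold, had 42, 53.6 and 26.1 CPM in Cre males and 20.1, 22.5 and 17 CPM in GFP males (edgeR, adjusted p = 0.167). Among the Shank scaffolds the log2 differences were 0.55 for Shank1, 0.05 for Shank2 and 0.04 for Shank3. They were -0.18 for Dlg1, -0.028 for Dlg3 and -0.10 for Dlg4, and -0.22 for Dlgap2, 0.32 for Dlgap3, 0.065 for Dlgap4 and -0.0038 for Homer3.

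No AMPA or NMDA subunit, kinase subunit or neuroligin was called in males. Grin3a, which encodes GluN3A, a glycine-binding subunit, had 71.4, 91.6 and 42.9 CPM in Cre males and 39.9, 42.6 and 29.6 CPM in GFP males. The lowest Cre male library, at 42.9 CPM, lay next to the highest GFP male library, at 42.6 CPM, and the log2 difference of 0.88 ± 0.28 did not pass (edgeR, adjusted p = 0.0941). Gria1 had 579.9, 588 and 545 CPM in Cre males and 620.1, 635 and 640.1 CPM in GFP males (edgeR, adjusted p = 0.181). Gria2, Gria3 and Gria4 had log2 differences of -0.18, 0.16 and -0.021. Grin1 had 299, 271 and 287 CPM in Cre males and 277, 253 and 250.5 CPM in GFP males (edgeR, adjusted p = 0.303). Camk2a had 2614, 1902 and 2006 CPM in Cre males and 1979, 1833 and 1874 CPM in GFP males (edgeR, adjusted p = 0.4). The log2 differences of the remaining members were 0.13 for Grin2a, -0.18 for Grin2b, 0.26 for Grin2c, 0.50 for Grin2d, -0.027 for Grin3b, -0.17 for Camk2b, -0.13 for Nlgn1 and -0.049 for Nlgn3. Over all members, 19 had no overlap between the 3 Cre and the 3 GFP male libraries, 8 higher and 11 lower; over all genes tested the share without overlap was 29.4%.

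**Figure D2:**
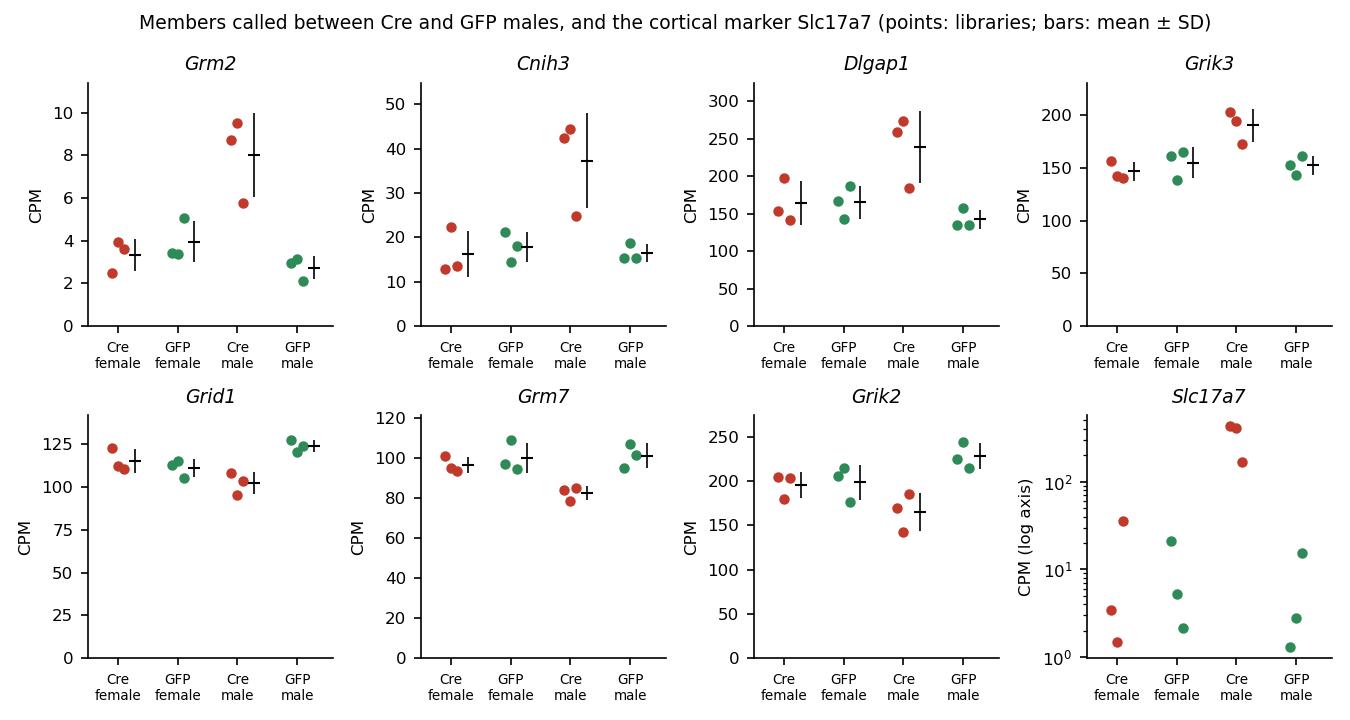
CPM of the 7 members called between Cre and GFP males in the 12 floxed libraries, and of the cortical marker Slc17a7 on a log axis. Points are libraries, and black bars, for the members, are mean ± SD of 3 libraries. Grm2, Cnih3, Dlgap1 and Grik3 are higher and Grid1, Grm7 and Grik2 lower in Cre males than in GFP males, and Slc17a7 stands at 168 to 428 CPM in Cre males against 1.29 to 15.3 CPM in GFP males.

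Markers of other cell types moved with the same contrast. Slc17a7, which encodes the glutamate transporter of synaptic vesicles in cortex, had 428, 408 and 168 CPM in Cre males, against 1.29, 2.76 and 15.3 CPM in GFP males. Of the 12 cortical markers, 10 were called higher, with a median log2 difference of 4.18. The 12 choroid plexus and ependymal markers summed to 94.8 to 2109.6 CPM in Cre males and 66.2 to 87.4 CPM in GFP males; edgeR called 0, put 7 under an unadjusted p of 0.05, all higher, and DESeq2 called 6. The 18 medium spiny neuron markers summed to 5917 to 11138 CPM in Cre males and 11580.2 to 12342 CPM in GFP males, and all 18 had a negative log2 difference, with a median of -0.35. edgeR called 0 of them and put 6 under an unadjusted p of 0.05, and DESeq2 called 3. Drd1 stood at 242, 138 and 266 CPM in Cre males and 278, 302 and 298 CPM in GFP males. Drd2 stood at 174, 93.2 and 197 CPM in Cre males and 193, 196 and 216 CPM in GFP males, and Ppp1r1b at 763, 409 and 883 CPM in Cre males and 856, 827 and 887 CPM in GFP males. Of 8 interneuron markers, Sst and Npy were called higher. Glial markers had small positive medians with 0 called by edgeR: 0.25 for oligodendrocytes (9 of 9 positive), 0.18 for microglia (7 of 7) and 0.12 for astrocytes (7 of 7).

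With a score of the cortical markers as a covariate, 0 members and 0 genes were called, so the floxed gene Dnmt3a was not called either. With this covariate the 7 members kept the sign of their difference. Under it Grm2 had a log2 difference of 1.23, Cnih3 of 0.61, Dlgap1 of 0.62, Grik3 of 0.17, Grik2 of -0.31, Grm7 of -0.14 and Grid1 of -0.14 (edgeR, adjusted p = 1 for each). With a choroid plexus score as the covariate 0 members and 30 genes were called. All 3 Cre male libraries held more cortical marker RNA than all 3 GFP male libraries, so Cre and cortical RNA cannot be told apart in this contrast. The 7 calls also rested on most of the libraries. Without Cre male library 2, GFP male library 2 or GFP male library 3, Grm2 alone was called, and without Cre male library 1 or GFP male library 1, 2 members were called.

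Since Dnmt3a acts mainly on cytosines that precede a guanine, the promoters of called members are shown with their CG pairs. Windows run from 250 bases before to 50 bases after the start and come from RefSeq, build GRCm38.p6. Entries were found for 32 of the 47 members and for 6 of the 7 called, and the 4 called members with a single entry are printed 5′ to 3′ with CG in capitals. CG reads the same on both strands. The windows are chr9:106656060-106656359 on the minus strand, chr10:49788705-49789004 on the minus strand, chr1:181352378-181352677 on the plus strand and chr4:125490446-125490745 on the plus strand.
Grm2: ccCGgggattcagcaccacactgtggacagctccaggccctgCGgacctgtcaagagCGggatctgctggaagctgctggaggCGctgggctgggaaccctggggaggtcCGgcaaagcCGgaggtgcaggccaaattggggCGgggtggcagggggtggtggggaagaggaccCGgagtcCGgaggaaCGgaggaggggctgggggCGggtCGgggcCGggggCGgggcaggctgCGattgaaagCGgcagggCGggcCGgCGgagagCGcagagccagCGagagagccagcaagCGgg
Grik2: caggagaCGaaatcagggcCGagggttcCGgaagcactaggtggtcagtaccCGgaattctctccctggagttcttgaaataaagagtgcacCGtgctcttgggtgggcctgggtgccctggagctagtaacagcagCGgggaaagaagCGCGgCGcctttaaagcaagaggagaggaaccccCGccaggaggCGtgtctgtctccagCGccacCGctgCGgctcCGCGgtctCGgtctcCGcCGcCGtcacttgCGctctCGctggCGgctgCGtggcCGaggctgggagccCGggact
Cnih3: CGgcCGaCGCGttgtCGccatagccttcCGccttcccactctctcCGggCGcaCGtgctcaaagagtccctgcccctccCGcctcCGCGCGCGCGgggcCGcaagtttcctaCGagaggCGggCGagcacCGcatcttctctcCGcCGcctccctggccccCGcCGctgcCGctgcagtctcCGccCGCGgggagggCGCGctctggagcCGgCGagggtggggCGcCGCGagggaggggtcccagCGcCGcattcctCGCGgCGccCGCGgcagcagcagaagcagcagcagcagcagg
Grik3: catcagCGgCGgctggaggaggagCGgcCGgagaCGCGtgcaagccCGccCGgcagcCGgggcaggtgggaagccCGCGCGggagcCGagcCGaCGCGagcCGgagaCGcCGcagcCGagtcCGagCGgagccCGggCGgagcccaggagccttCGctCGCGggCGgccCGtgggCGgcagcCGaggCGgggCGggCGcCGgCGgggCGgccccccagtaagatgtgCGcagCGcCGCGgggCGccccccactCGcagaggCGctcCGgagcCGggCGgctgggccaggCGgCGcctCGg

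Grm2 held 22 CG pairs, a number reached by 23.1% of all 32851 promoter entries. Grik2, which was lower with Cre, held 26, reached by 16.9%. Cnih3 held 42, reached by 3.03%, and Grik3 held 50, reached by 0.855%. Counts are given only for the called members with a single entry, so they do not describe all called members. The member entries had a median of 14 CG pairs, beside 7 over all entries. At least 1 CG pair was found in 97.9% of the member entries and in 94.6% of all entries. Methylation was not measured in these libraries.

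In females no member was called between Cre and GFP, and the background share of all genes called was 0%. edgeR put 5 members under an unadjusted p of 0.05, or 10.6% against 5.96% of all genes, and DESeq2 called 0. The 5 smallest p-values belonged to the genes that follow, none of which passed. Cnih2 had 169, 179 and 172 CPM in Cre females, against 126, 141 and 157 CPM in GFP females, a log2 difference of 0.29 ± 0.082 (SE, edgeR, adjusted p = 0.621). Dlgap3, which encodes the striatum-enriched SAPAP3, had 263, 247 and 288 CPM in Cre females, against 165, 196 and 224 CPM in GFP females (log2 0.45 ± 0.13, edgeR, adjusted p = 0.63). Shank3, the scaffold that binds SAPAP proteins, had 321, 311 and 336 CPM in Cre females, against 232, 265 and 284 CPM in GFP females (log2 0.31 ± 0.11, edgeR, adjusted p = 0.741). In these 3 genes every Cre female library was above every GFP female library. Their GC contents are 62.3%, 63.9% and 62.4%, and GFP female library 1 was the lowest in each. The correlation of the members' GC content with a library's deviation from the mean was 0.2, -0.0575 and 0.359 in Cre females. It was -0.477, -0.15 and 0.233 in GFP females. Under other settings the log2 differences ran from 0.155 to 0.304 for Cnih2, 0.277 to 0.472 for Dlgap3 and 0.169 to 0.337 for Shank3.

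The remaining pair had lower means with Cre and overlapping groups. Grik1 had 4.55, 6.38 and 4.42 CPM in Cre females, against 10.5, 5.67 and 11.3 CPM in GFP females (log2 -0.85 ± 0.34, edgeR, adjusted p = 0.81). Gria4 had 79.7, 77 and 63 CPM in Cre females, against 91.1, 78.8 and 91.1 CPM in GFP females (log2 -0.25 ± 0.11, edgeR, adjusted p = 0.824). No overlap was seen in 5 members, all higher, with Dlg3 and Dlg4 beside the 3 above; over all genes the share without overlap was 11.5%. The median log2 difference of the members was 0.052, beside 0.00015 over all genes. The members called in males had log2 differences of -0.25 for Grm2, -0.15 for Cnih3, -0.0095 for Dlgap1, -0.079 for Grik3, 0.052 for Grid1, -0.051 for Grm7 and -0.019 for Grik2 in females. The cortical markers summed to 48.2 to 94.7 CPM in Cre females and 50.9 to 82.4 CPM in GFP females. The medium spiny neuron markers summed to 10788 to 13212 CPM in Cre females and 10275 to 12014 CPM in GFP females, and 18 of 18 had a positive log2 difference, with a median of 0.15 and 0 called. Of the 8 interneuron markers 6 were negative, 4 of them and 1 positive one at an unadjusted p below 0.05 by edgeR, with a median of -0.23 and 0 called. The part of these markers in the members' values was not tested.

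Of the low members, 5 varied together across the female libraries, with high libraries in both virus groups. They were picked out after their values were seen, and Grik1 among them is also 1 of the 5 of smallest p above. Homer2 had 22.3, 40.6 and 15.9 CPM in Cre females and 25.9, 14.3 and 37.3 CPM in GFP females. Grm8 had 3.26, 8.27 and 1.79 CPM in Cre females and 7.09, 2.77 and 9.31 CPM in GFP females. Grin2d, which encodes the NMDA subunit GluN2D, had 13.8, 18 and 12.6 CPM in Cre females and 19.2, 13.2 and 25.5 CPM in GFP females. In each of them, and in Grik1 and Grin3a, Cre female library 2 and GFP female libraries 1 and 3 were the high ones. Grin3a had 30.9, 43.6 and 28.7 CPM in Cre females and 51.8, 39.3 and 55.1 CPM in GFP females. Slc17a6, the vesicular glutamate transporter typical of thalamic and other subcortical neurons, was high in the same libraries, with 1.21, 5.1 and 1.91 CPM in Cre females and 9.93, 3.36 and 11.8 CPM in GFP females. Not all genes of the cortical marker list, which holds Slc17a6, followed it. Slc17a7 had 3.41, 1.5 and 36.0 CPM in Cre females and 20.8, 5.19 and 2.15 CPM in GFP females. Tbr1 had 0.859, 0.748 and 5.32 CPM in Cre females and 4.83, 1.74 and 0.973 CPM in GFP females. In both genes Cre female library 2 and GFP female library 3 were the lowest of their groups. The part of Slc17a6 in the values of the 5 members was not tested.

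**Figure D3:**
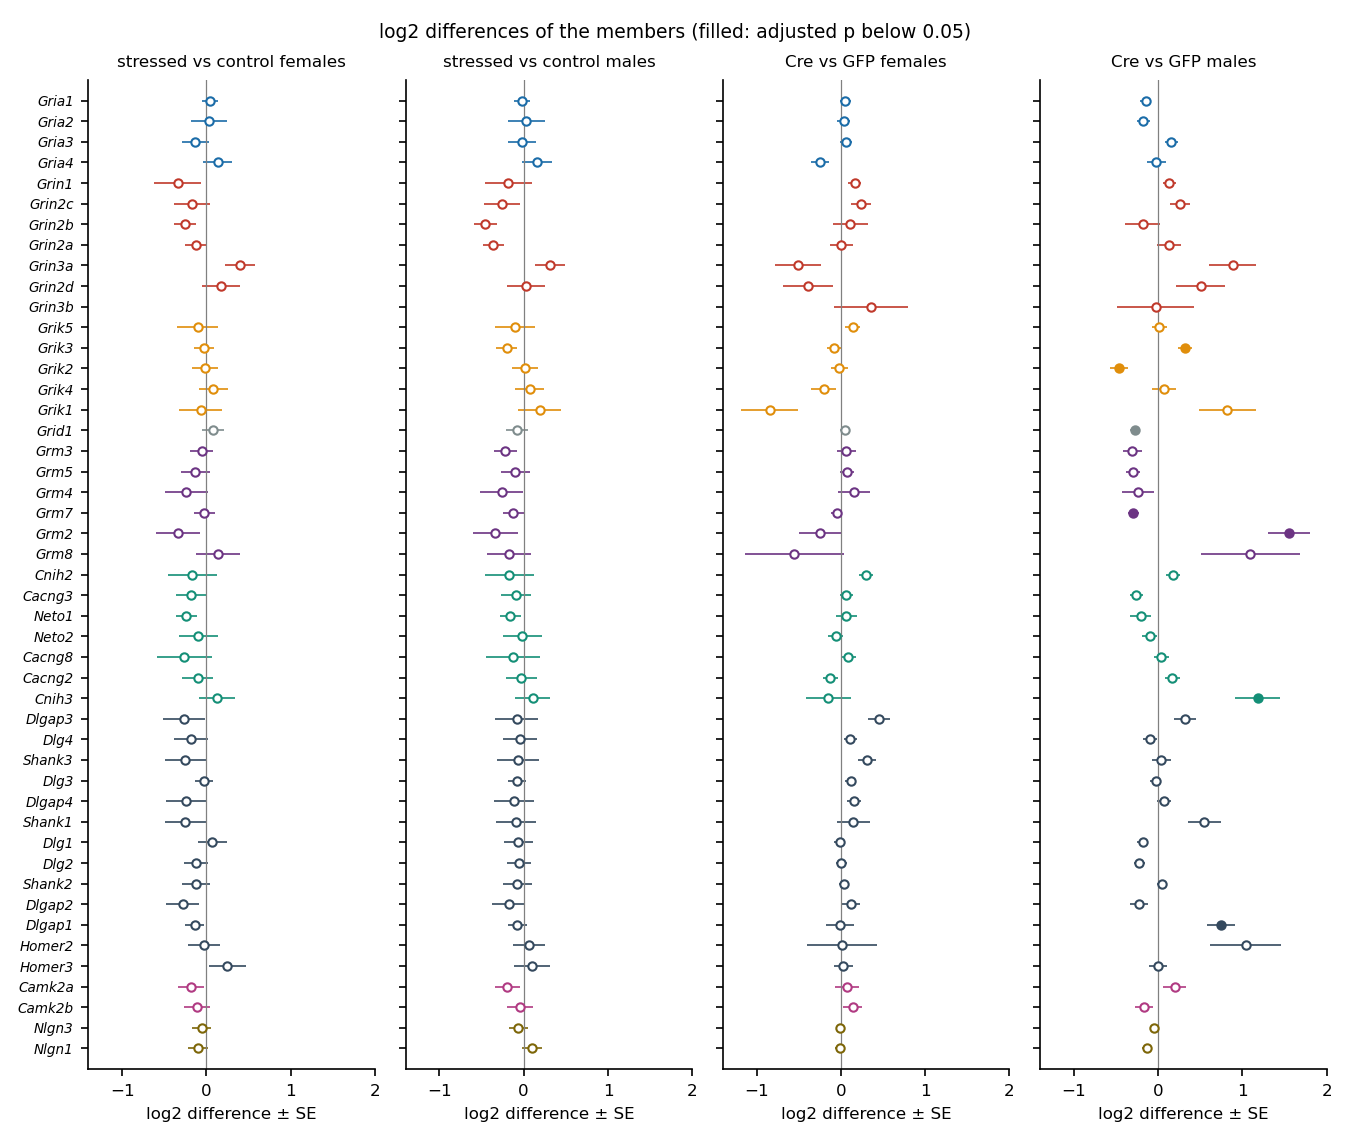
log2 difference ± SE of each member in the 2 Cre and the 2 stress comparisons, each sex on its own, coloured by role as in the plot of levels, with filled points for an adjusted p below 0.05. The 7 filled points are all in the Cre against GFP comparison of males, where Grm2 is farthest right at 1.56 and Grik2 farthest left at -0.46.

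Averaged over the sexes, no member was called between Cre and GFP, against 1.42% of all genes. edgeR put 13 members under an unadjusted p of 0.05, 9 higher and 4 lower, or 27.7% against 14.2% of all genes. DESeq2 called 6 members, against 3.71% of all genes. The smallest p-values, none of which passed, belonged to Dlgap3 (log2 0.39 ± 0.091, edgeR, adjusted p = 0.0697), Cnih2 (log2 0.23 ± 0.058, adjusted p = 0.0774), Grm7 (log2 -0.17 ± 0.046, adjusted p = 0.0981), Grm2 (log2 0.65 ± 0.17, adjusted p = 0.101) and Grik2 (log2 -0.24 ± 0.072, adjusted p = 0.141). Dlgap3 was higher in both sexes, with 221, 171 and 239 CPM in Cre males and 177, 162 and 166 CPM in GFP males beside the female values above. Under other settings its mean difference ran from 0.151 to 0.556, and that of Cnih2 from 0.0454 to 0.387. All 12 cortical markers were higher with Cre in this mean, 4 of them called, with a median of 2.34. All 12 choroid plexus and ependymal markers were higher, with 0 called by edgeR and a median of 1.21. The part of either list in the members' values was not tested. Without GFP female library 3, 4 members were called; without Cre male library 2, 3 were; without Cre male library 3, 1 was.

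The difference between the sexes in the response to Cre was tested as an interaction, the female minus the male log2 difference. No member was called, against 0.0114% of all genes. edgeR put 16 members under an unadjusted p of 0.05, or 34.0% against 17.5% of all genes, and DESeq2 called 7, against 3.44% of all genes. Grm2 had the smallest p, with a log2 interaction of -1.80 ± 0.35 (SE, edgeR, adjusted p = 0.0756). The next were Grid1 at 0.33 ± 0.086 (edgeR, adjusted p = 0.116), Cnih3 at -1.33 ± 0.37 (adjusted p = 0.148), Grik1 at -1.67 ± 0.48 and Grin3a at -1.39 ± 0.39 (both adjusted p = 0.15). A call in males and none in females is therefore not shown to be a difference between the sexes for any member under edgeR. Without Cre male library 3, 4 members were called, and without GFP female library 2, 1 was. Cortical marker RNA was high in Cre males and not in Cre females, and its part in the interaction was not tested.

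Between floxed females and males, with both viruses together, no member was called, against 0.0682% of all genes. edgeR put 6 members under an unadjusted p of 0.05, 3 higher and 3 lower in females, or 12.8% against 6.68% of all genes, and DESeq2 called 0. The 5 smallest p-values belonged to Shank3 (log2 female minus male 0.24 ± 0.078, edgeR, adjusted p = 0.551), Dlgap3 (0.28 ± 0.091), Grik3 (-0.18 ± 0.059), Cnih3 (-0.55 ± 0.19) and Gria3 (-0.14 ± 0.053). Their adjusted p-values lay between 0.551 and 0.639 (edgeR). The Cre males are part of this contrast. Of 12 cortical markers 11 were lower in females, 7 at an unadjusted p below 0.05 (edgeR), with a median of -1.49. All 12 choroid plexus and ependymal markers were lower, with a median of -0.94. All 7 endothelial markers were higher, each under that p, with a median of 0.30. The 18 medium spiny neuron markers were higher too, with a median of 0.14. edgeR called 0 of these markers, and their part in the members' values was not tested.

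Stress was compared with control in wild-type mice, where 46 of the 47 members were tested. In males no member was called, against 0.00656% of all 15249 genes. edgeR put 2 members under an unadjusted p of 0.05, both lower, or 4.35% against 2.81% of all genes, and DESeq2 called 0. Both were glutamate-binding NMDA subunits. Grin2b had 156, 129 and 154 CPM in stressed males, against 174, 219.6 and 209 CPM in control males. Every stressed library was below every control library, and the log2 difference was -0.46 ± 0.13 (SE, edgeR, unadjusted p = 0.00478, adjusted p = 1). Grin2a had 55.6, 51.1 and 59.8 CPM in stressed males, against 72.3, 75.2 and 66.5 CPM in control males, again without overlap. Its log2 difference was -0.36 ± 0.13 (SE, edgeR, unadjusted p = 0.0131, adjusted p = 1).

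The next 3 members by p also did not pass. Grin3a had 61.9, 53.5 and 47.4 CPM in stressed males, against 45.7, 42.8 and 42.6 CPM in control males, a log2 difference of 0.31 ± 0.18 in the other direction from Grin2a and Grin2b. Grik3 had 157, 139 and 157 CPM in stressed males and 174, 161 and 186 CPM in control males (log2 -0.20 ± 0.12). Grm3 had 147, 158 and 141 CPM in stressed males and 181, 180.2 and 159 CPM in control males (log2 -0.22 ± 0.13). Their adjusted p was 1 (edgeR). In 6 members the groups did not overlap, 1 higher and 5 lower, with Grm2 beside the 5 named; over all genes the share without overlap was 7.91%. The exons of Grin2b share 278 bases with genes on the opposite strand.

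In stressed against control females no member was called, against 0% of all genes; edgeR put 1 member under an unadjusted p of 0.05, or 2.17% against 1.68% of all genes, and DESeq2 called 0. That member was Grin3a, with 47.7, 47.6 and 76 CPM in stressed females, against 43.8, 40.5 and 45 CPM in control females. Stressed female library 3 was far above the other 5, and all 3 stressed libraries were above the controls. The log2 difference was 0.40 ± 0.18 (SE, edgeR, unadjusted p = 0.0413, adjusted p = 1). Without stressed female library 3 it was 0.14. Neto1, an auxiliary subunit of kainate and NMDA receptors, had 149, 176 and 169.6 CPM in stressed females, against 193, 185 and 204 CPM in control females, without overlap (log2 -0.24 ± 0.13). Grin2b had 189, 210.0 and 170.1 CPM in stressed females, against 226, 246 and 206 CPM in control females, with 1 stressed library above the lowest control and each stressed library below the control of its number (log2 -0.25 ± 0.13).

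Dlgap2, which encodes SAPAP2, and Grm2 completed the 5 smallest p-values in females, and neither passed. Dlgap2 had 108, 85.3 and 81.1 CPM in stressed females, against 153, 91.4 and 89.8 CPM in control females (log2 -0.28 ± 0.20). Without control female library 1 it was 0.015. Same-numbered female libraries deviated together, each stressed library was below the control library of its number, and with the replicate block the difference was -0.25 (edgeR, adjusted p = 0.821). Grm2 had 3.11, 6.04 and 4.17 CPM in stressed females, against 6.89, 6.28 and 3.85 CPM in control females (log2 -0.34 ± 0.26). At this low level it moved to -0.17 without control library 1, -0.55 without control library 3, -0.14 without stressed library 1, -0.64 without stressed library 2 and -0.021 with the cortical marker score as covariate. All 4 members after Grin3a had an adjusted p of 1 (edgeR). No overlap was seen in 2 members, Grin3a and Neto1; over all genes the share was 5.3%.

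In each sex 35 of 46 members, or 76.1%, had a negative log2 difference after stress, where 51.3% of all genes did in females and 50.3% in males. The median was -0.11 in females and -0.077 in males, beside -0.0058 and -0.0011 over all genes. The members ran from -0.34 at Grin1 to 0.40 at Grin3a in females and from -0.46 at Grin2b to 0.31 at Grin3a in males. Gria1, the most abundant AMPA subunit, had 811, 766 and 784 CPM in stressed females and 782, 741 and 776 CPM in control females, and 724, 746 and 761 CPM in stressed males and 741, 729 and 794 CPM in control males. Camk2a had 2201, 2333 and 1886 CPM in stressed females and 2828, 2369.9 and 2107 CPM in control females, and 2046, 1826 and 2272 CPM in stressed males and 2174, 2098 and 2758 CPM in control males, so that the groups overlapped in each sex for both genes. The 18 medium spiny neuron markers showed the same sign, with 17 of 18 negative in each sex and medians of -0.14 in both, and their part in the members' medians was not tested. No marker of that list was called. The 7 endothelial markers were negative in 7 of 7 in females and 6 of 7 in males, with medians of -0.17 and -0.12, and the 51 other glutamate genes in 35 and 34. Of the 10 cortical markers tested in females 8 were negative, with a median of -1.13 and 0 called. At an unadjusted p below 0.05 by edgeR stood 6 of the 8. In males 5 of the 10 were negative, with a median of 0.085 and 0 under that p. Choroid plexus markers summed to 60 to 479 CPM in stressed females and 47.8 to 588 CPM in control females. They summed to 90.8 to 204 CPM in stressed males and 51.2 to 2683 CPM in control males. Of the 11 tested, 10 were negative in males, 7 at an unadjusted p below 0.05 by edgeR, with a median of -2.70. In females 2 were negative and 9 positive, with a median of 0.50. edgeR called 0 of them in either sex. Cortical markers summed to 84.4 to 129 CPM in stressed females and 118 to 221 CPM in control females.

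**Figure D4:**
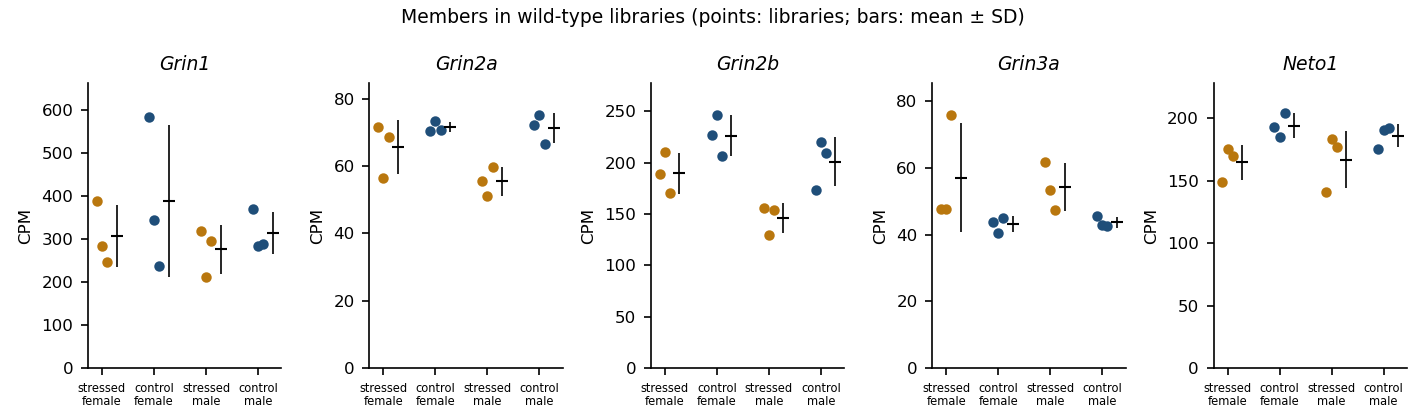
CPM of 4 NMDA receptor genes and of Neto1 in the 12 wild-type libraries. Points are libraries, and black bars are mean ± SD of 3 libraries. Grin2a and Grin2b are lower and Grin3a is higher in stressed than in control males without overlap, none of these differences passed, and Grin1 spreads from 237 to 583 CPM within control females.

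Averaged over the sexes, no member was called between stress and control, against 0.0131% of all genes; edgeR put 4 members under an unadjusted p of 0.05, 1 higher and 3 lower, or 8.70% against 3.21% of all genes, and DESeq2 called 0. These were Grin2b (log2 -0.36 ± 0.10), Grin3a (0.36 ± 0.13), Grin2a (-0.24 ± 0.089) and Neto1 (-0.20 ± 0.088). Their adjusted p was 1 (edgeR). Grin3a was the member with every stressed library of either sex above every control library, and its mean difference was 0.23 without stressed female library 3. Grm2 came next, at a log2 difference of -0.34 ± 0.19.

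The interaction of stress with sex called no member, against 0% of all genes; edgeR put 0 members under an unadjusted p of 0.05 and DESeq2 called 0. The 5 smallest p-values belonged to Grin2a (log2 female minus male 0.23 ± 0.18), Nlgn1 (-0.20 ± 0.17), Grin2b (0.20 ± 0.19), Grik3 (0.17 ± 0.17) and Grm3 (0.16 ± 0.19). All had an adjusted p near 1 (edgeR).

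Between wild-type females and males, stressed and control together, no member was called, against 0.0393% of all genes; edgeR put 2 members under an unadjusted p of 0.05, both higher in females, or 4.35% against 5.03% of all genes, and DESeq2 called 0. Grm7 had 104, 114 and 110.5 CPM in stressed and 99.9, 113 and 123 CPM in control females, against 81.4, 92.5 and 82.7 CPM in stressed and 87.8, 103 and 88.6 CPM in control males. Its female values overlapped with the male values at the highest control male library, and the log2 difference was 0.31 ± 0.086 (SE, edgeR, adjusted p = 0.969). Grin2b followed at 0.27 ± 0.10 (edgeR, adjusted p = 0.971), then Grik3 at 0.18 ± 0.085, Grik1 at 0.35 ± 0.18 and Grm2 at 0.26 ± 0.19, with adjusted p-values up to 0.997 (edgeR).

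Within wild-type groups the members spread by the GC content of their transcripts. Grin1, with 59.4% GC, had 583, 343 and 237 CPM in control females. Gria2, with 36.8% GC, ran the other way, with 554, 817 and 1057 CPM in the same libraries. Cnih2, with 62.3% GC, had 227, 119 and 99.1 CPM, and Neto2, with 36.5% GC, had 80.9, 112 and 149.9 CPM. Control female library 1 was thus high for GC-rich members and low for GC-poor ones, and library 3 was the reverse.

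Over the 46 members tested, the correlation of GC content with a library's deviation from the mean of the 12 libraries was 0.624, -0.131 and -0.622 in stressed females and 0.796, -0.218 and -0.872 in control females. It was 0.646, -0.805 and 0.487 in stressed males and 0.721, -0.48 and 0.0268 in control males. These describe genes of single libraries, which share their depth and preparation. Over all genes the values ran from -0.615 to 0.491. In the floxed libraries they were smaller for most libraries, from -0.617 in GFP male library 2 to 0.359 in Cre female library 3. Correcting each library for GC content left 0 wild-type members called between stress and control, and 6 between Cre and GFP males, where Grik3 no longer passed (edgeR, adjusted p = 0.0558).

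**Figure D5:**
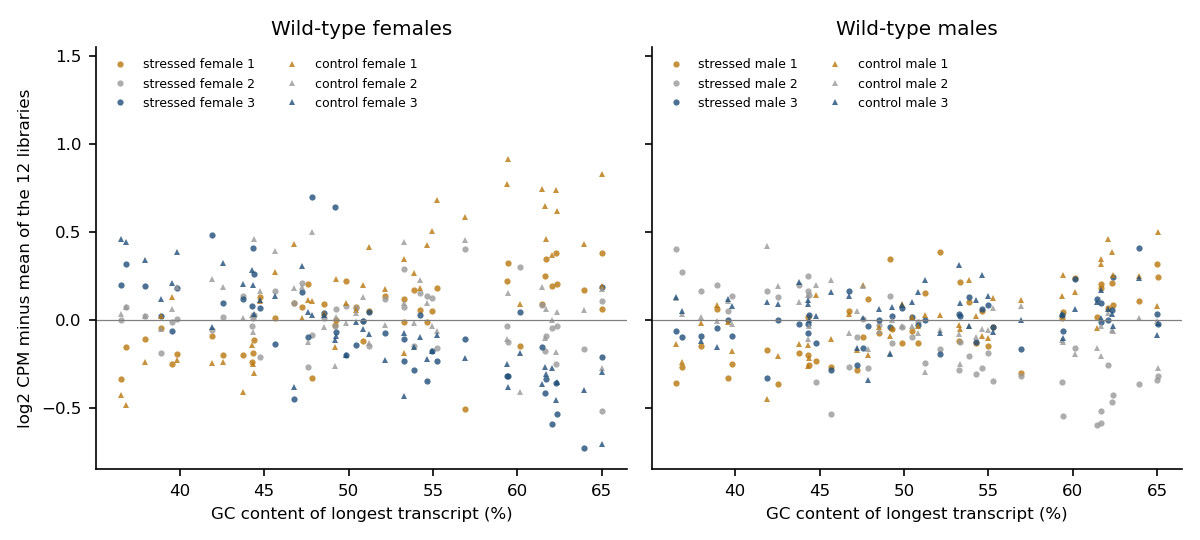
Deviation of each member's log2 CPM from its mean over the 12 wild-type libraries (vertical axis) against the GC content of its longest transcript in percent (horizontal axis), for females and males. Circles are stressed and triangles control libraries, coloured by library number. GC-rich members lie high in control female library 1 and low in control female library 3, with correlations of 0.796 and -0.872.

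The other genes of the glutamate synapse on a second list, 52 in number, were read beside the members. In males 4 of the 51 tested were called higher with Cre and 2 lower, set against 3.68% and 1.28% of all genes. Cbln2, a cerebellin that bridges neurexins and delta receptors, had 9.01, 12.2 and 5.57 CPM in Cre males, against 1.94, 2.86 and 1.76 CPM in GFP males (log2 2.04 ± 0.43, edgeR, adjusted p = 0.0272). Cacng7, an AMPA receptor regulator, had 89.5, 86.3 and 83.6 CPM in Cre males, against 74.2, 67.9 and 66.2 CPM in GFP males (log2 0.32 ± 0.079, edgeR, adjusted p = 0.0424). The neurexin gene Nrxn2 had 245, 303 and 206 CPM in Cre males, against 176, 158 and 154 CPM in GFP males (log2 0.63 ± 0.15, edgeR, adjusted p = 0.0428). The fourth was Slc17a7 (log2 5.62 ± 1.31, edgeR, adjusted p = 0.0431), the cortical marker described above.

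The pair that was lower comprised Cbln4 and Nrxn3. Cbln4, another cerebellin, had 11.8, 14.7 and 14.6 CPM in Cre males, against 22.3, 21.4 and 16.7 CPM in GFP males (log2 -0.55 ± 0.13, edgeR, adjusted p = 0.0309). Nrxn3 had 297, 306 and 288 CPM in Cre males, against 363, 361 and 334 CPM in GFP males (log2 -0.25 ± 0.063, edgeR, adjusted p = 0.0468). Averaged over the sexes, Cbln4 (log2 -0.42 ± 0.089, edgeR, adjusted p = 0.0415) and Slc17a8, a vesicular glutamate transporter of interneurons (log2 -0.35 ± 0.068, edgeR, adjusted p = 0.0322), were lower with Cre. For this mean edgeR called 1.42% of all genes. DESeq2 called 13 of the 51 in males and 4 for the mean, against 10.3% and 3.71% of all genes. With the cortical marker score as covariate 0 genes of the table were called in males or for the mean. Slc17a7 is itself part of that score, so the loss of its call carries no information. Every Cre male library held more cortical marker RNA than every GFP male library. The loss of the other calls therefore cannot tell Cre and cortical RNA apart.

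In the other 8 comparisons edgeR called 0 of the 51. Under an unadjusted p of 0.05 stood 8 of the 51 in Cre against GFP females, where 5.96% of all genes did. In the Cre interaction 18 of the 51 did, where 17.5% of all genes did. Between floxed females and males there were 4 of 51, against 6.68% of all genes, and between wild-type females and males 2 of 51, against 5.03%. The mean effect of stress had 4 of 51, against 3.21% of all genes, and stress in females 1 of 51, against 1.68%. Stress in males had 1 of 51, against 2.81% of all genes, and the stress interaction 0 of 51, against 1.19%. DESeq2 called 5 in the Cre interaction, 1 in Cre against GFP females, 1 for stress in males, 1 for the mean effect of stress and 0 in the remaining comparisons. Over all genes it called 3.44% in the Cre interaction, 34 genes in Cre against GFP females, 4 for stress in males and 12 for its mean effect. Rasgrf2, an exchange factor downstream of NMDA receptors, had the smallest p in stressed against control males, with 123, 99 and 112 CPM in stressed males, against 82.2, 77.1 and 76.5 CPM in control males. The groups did not overlap, and the log2 difference of 0.50 ± 0.12 did not pass (edgeR, adjusted p = 1). In Cre against GFP females the smallest p belonged to Slc17a8, with 15.4, 17.9 and 19.5 CPM in Cre females, against 25.2, 22.1 and 23.7 CPM in GFP females (log2 -0.43 ± 0.10, edgeR, adjusted p = 0.474). The 3 smallest p-values, none of which passed, belonged to Slc17a8, Lrrtm1 and Begain for Cre in females, to Cbln2, Shisa7 and Camk2g for the Cre interaction, and to Lrrtm1, Frrs1l and Slc17a7 between floxed females and males. For stress they belonged to Slc17a7, Lrrc7 and Cbln4 in females, to Rasgrf2, Slc17a6 and Cacng7 in males, to Rasgrf2, Slc17a7 and Lrrc7 for the mean, and to Rasgrf2, Syndig1 and Slc1a1 for the interaction. Between wild-type females and males they belonged to Nrxn3, Akap5 and Lrrc7.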

How the data were processed

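RNA-seq counts per gene were deposited by the authors for 24 libraries of 8 groups, each library a pool of 4 mice with RIN above 8. Per the submitters' processing notes, Bowtie2 2.1.0, TopHat2 2.0.9 and HTSeq 0.6.0 were used with builds NCBIM37 and mm9. Whether counting used strand is not given in the sources used here, so overlapping genes on either strand cannot be told apart. The main test was edgeR 4.0.16's robust quasi-likelihood test (R 4.3.3) on these counts, with TMM factors, filterByExpr, 4 group means per experiment and Benjamini-Hochberg adjustment over all genes, called below 0.05. SE is the size of the log2 difference divided by the square root of F. DESeq2 1.42.0 and other settings were alternatives, and the correction for GC content was chosen after seeing the data. The script was tested on simulated data. Exon lengths and GC content came from GENCODE M21 on GRCm38, a later build than the counts, and were joined by gene ID.

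The members and lists were chosen with earlier results of these data known. Named are members by role: those called, up to 12, or the 5 of smallest p where fewer than 5 were called, and for levels the highest and lowest of each role. Of the other glutamate genes, the called ones or the 3 of smallest p are named. The defining markers are Slc17a7, Ttr, Drd1, Drd2 and Ppp1r1b. P-values measure the spread between pools. The labels number the libraries 1 to 3 in each group. Stressed and control females of the same number deviated together, with correlations of 0.334 to 0.592 over 15249 genes, above 0.1 in 3 of 3 pairs, so the pairing there comes from the data. In stressed and control males 2 of 3 pairs passed 0.1. Across the sexes, stressed females and control males of the same number correlated at 0.231 to 0.607, above 0.1 in 3 of 3 pairs. Control females and control males passed in 2 of 3 pairs. Stressed males passed in 1 of 3 with stressed females and in 1 of 3 with control females. Libraries of different numbers correlated at up to 0.571 between control females and stressed males and 0.479 between stressed females and stressed males. Between stressed and control females they reached 0.0794, and between Cre and GFP females 0.462. Cre females and Cre males of the same number passed in 2 of 3 pairs.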

Additional observations from a re-analysis of the deposited data

How the results depend on the processing

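Between Cre and GFP males, where the main test called 7 members, DESeq2 called 12, and a fit of only the 2 groups called 3 (Grm2, Dlgap1 and Cnih3). The replicate block called 1 (Grm2), alone or with the GC correction, and a cortical or a choroid plexus marker score as covariate called 0. Leaving out each library in turn gave 1 to 8 calls, and Grm2 was called each time. The share of all genes called was not set beside the counts from leaving out libraries. For the mean effect of Cre, where the main test called 0, DESeq2 called 6, no filter on low counts 1 (Cnih2), the choroid plexus score 3 (Dlgap3, Shank3 and Gria4), and leaving out a library 0 to 4. For the Cre interaction, DESeq2 called 7 and leaving out a library gave 0 to 4. Between wild-type females and males, the replicate block with GC correction called 1 (Grm7, edgeR adjusted p = 0.0304). The other counts stayed within 1.5 times. The cause of these changes was not tested. Same-numbered Cre and GFP libraries correlated at -0.109 to 0.109 in males and -0.452 to 0.0857 in females. No pairing by number was seen there, but with 3 libraries a group such correlations cannot exclude a shared batch. The replicate block changed no member call between stress and control. Of 147 alternative values of the 7 called male differences, 66, or 44.9%, were no longer called. Of 915 alternative values of the 45 named differences that were not called, 23 passed the threshold and 1 changed sign. That was Dlgap2 in stressed against control females, at -0.42 to 0.015 when libraries were left out; leaving out 1 library breaks a same-numbered pair there. Depth left 46 of the 47 members above the filter in the wild-type libraries.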
